A study of Mus musculus with 10 samples.

Results

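The genes described here are 31 named genes of the unfolded protein response and the integrated stress response, taken as a given list and matched to the deposited tables by Entrez identifier. All 31 were found among the 36528 gene identifiers, and all 31 were among the 13588 genes with enough reads to be tested. They were divided by role into 11 chaperones and folding factors of the endoplasmic reticulum (ER), 4 factors of ER-associated degradation, 4 stress sensor genes counting Xbp1, 3 transcription factors of the integrated stress response and 9 target genes of the transcription factor ATF4. RNA-seq was performed on polyadenylated RNA of macrophages purified from MC-38 tumours, a mouse colon carcinoma line, grown in C57Bl/6 mice. The treated group of 5 libraries is labelled anti-MerTK, for an antibody to MerTK, a receptor tyrosine kinase with which macrophages bind and engulf dying cells, and the comparison group of 5 is labelled anti-gp120, for an antibody to a viral envelope protein. The series design gives 24 hours of anti-MerTK treatment. The labels give no age, sex, dose or cell sorting scheme, and no animal is named for any library, so p-values reflect only how these samples scatter, possibly for technical reasons.

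Proteins that misfold in the ER are sensed by 3 membrane proteins, IRE1 (the product of Ern1), ATF6 and PERK (the product of Eif2ak3). IRE1 splices the mRNA of Xbp1 and ATF6 is cut to release a transcription factor, and both routes raise chaperones and degradation factors. PERK phosphorylates the translation factor eIF2, as do kinases that sense amino acid shortage, heme shortage and double-stranded RNA. General translation then slows while ATF4 is made, and ATF4 raises genes of amino acid supply, redox balance and recovery of translation. In macrophages these routes are known to accompany high secretion, lipid loading and engulfment of dead cells. Much of this signalling runs through splicing, cleavage and phosphorylation, which gene-level counts do not measure.

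The libraries held 33159858 to 46108687 counted reads. Values are given as CPM (reads scaled to the normalised library size), listed for replicates 1 to 5 of a group, and as mean ± SD with n = 5. Tests are edgeR's quasi-likelihood test with Benjamini-Hochberg adjustment over all tested genes, and a gene is said to have risen or fallen where its adjusted p was under 0.05. Mertk mRNA measured 91.1 ± 14.3 CPM with anti-gp120 and 78.9 ± 4.96 CPM with anti-MerTK, a log2 fold change of -0.21 (adjusted p = 0.263). The macrophage markers summed to 28789.8 to 38681.8 CPM with anti-gp120 and 31030.9 to 37065.8 CPM with anti-MerTK. Of these 9 markers 1 rose, the Fc receptor gene Fcgr1 (fold change 1.55, adjusted p = 0.0247). Cd68 was higher without overlap (1.14, adjusted p = 0.122), and Mrc1 had an estimate in the other direction (0.70, adjusted p = 0.289). The 6 monocyte markers summed to 122 to 266 CPM with anti-gp120 and 272 to 432 CPM with anti-MerTK, so the ranges did not overlap, all 6 estimates were positive and 1 of 6 (Plac8) rose. Plasma cell markers, which matter because those cells are rich in ER chaperones, summed to 4.03 to 7.38 and 3.49 to 22.4 CPM, with Jchain, Mzb1, Tnfrsf17 and Pou2af1 at 20 counts or fewer in every library. The 22.4 CPM belonged to anti-MerTK replicate 5, where Sdc1 made up 21.3 CPM, and the same library was the highest for Col1a1 (19.5 CPM), a fibroblast gene, and Ccr7 (28.3 CPM), a gene of migratory dendritic cells. The part of these marker differences in the results below was not tested. In such bulk samples, fewer cells of a type and less RNA per cell cannot be told apart.

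Of the 31 genes, 1 fell and 0 rose with anti-MerTK. The gene that fell was Eif2ak3, which encodes PERK. Over all tested genes 3.22% were called, 1.85% as higher and 1.38% as lower, so the 1 of 31 called (3.23%) was near the background. At an unadjusted p under 0.05 there were 6 higher and 4 lower members, 32.3% of the list against 20.9% of all tested genes (10.1% higher and 10.8% lower). DESeq2, which called 8.60% of all tested genes, called 2 members higher and 2 lower. Limma-voom with quality weights, which called 7.62% of all tested genes, called 2 higher and 1 lower. The median log2 fold change was 0.09 over the 31 genes and -0.01 over all tested genes, and the members ran from -0.51 to 0.36. With 1 library left out, the median of the 31 ran from 0.05 (without anti-gp120 replicate 5) to 0.10 (without anti-MerTK replicate 5). It was 0.06 without anti-gp120 replicate 3 or 4 or without anti-MerTK replicate 1, 2 or 3. With offsets for length and GC content it was 0.01. For 23 of the 31 the 95% confidence interval of the fold change lay within 1.5-fold in either direction. That is 74.2% of the list, against 68.6% of all tested genes.

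**Figure D1:**
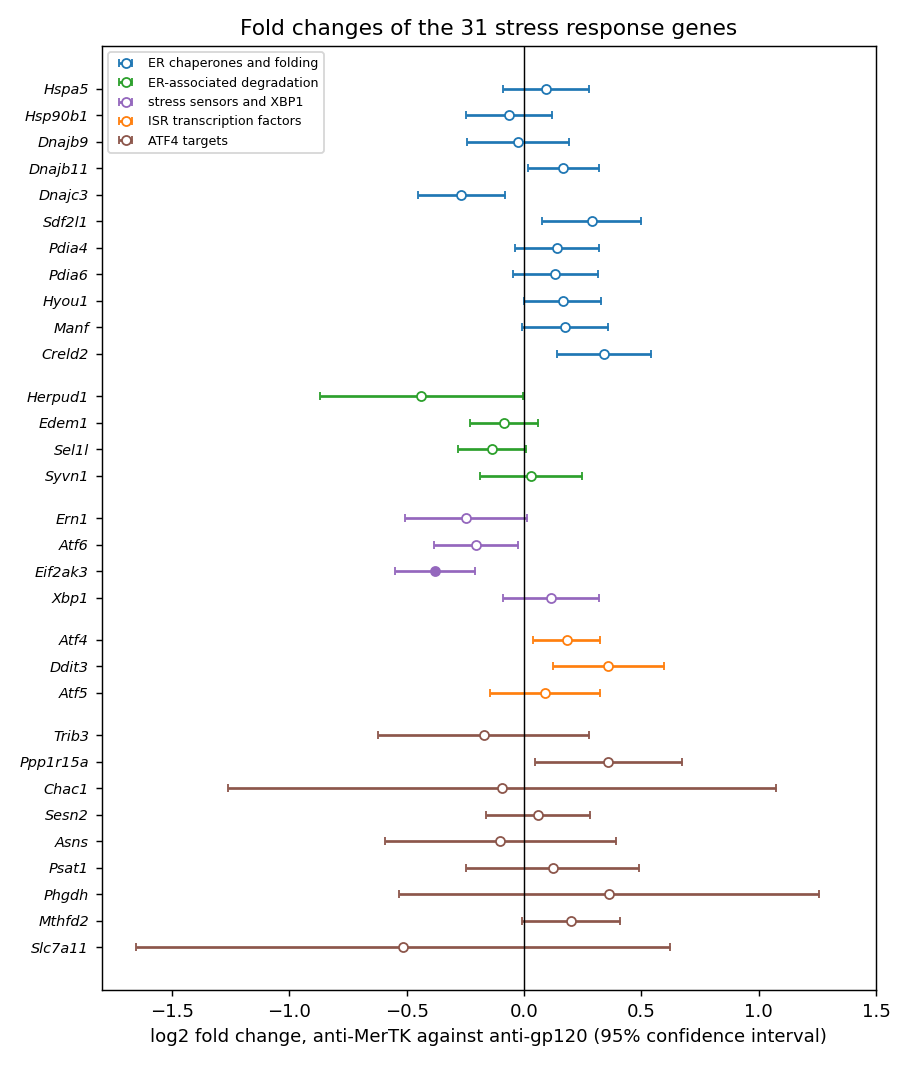
Log2 fold change of each of the 31 genes (x axis, anti-MerTK against anti-gp120, bars are 95% confidence intervals), grouped by role on the y axis. The filled point is the gene past the threshold, Eif2ak3. Intervals of the 11 chaperone genes are narrow, and those of Chac1, Phgdh and Slc7a11 are the widest.

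The levels of the 31 genes spanned a wide range. On the length-scaled RPKM of the authors, Hspa5, which encodes the abundant ER chaperone BiP, had the highest mean with anti-gp120, 639.5 ± 33.5 RPKM (SD, n = 5), above 99.3% of tested genes. Hsp90b1 followed at 268 ± 19.0 RPKM, then the disulfide isomerase gene Pdia6 at 206 ± 17.3 RPKM and Sdf2l1 at 147 ± 20.5 RPKM. Atf4 came next at 117 ± 4.95 RPKM, ahead of Herpud1 and Xbp1. Eif2ak3, at 6.26 ± 0.49 RPKM, lay near the middle of all tested genes. Asns (1.83 ± 0.64 RPKM) and Trib3 (1.75 ± 0.45 RPKM) were low, and Chac1 (0.19 ± 0.12 RPKM) and Phgdh (0.18 ± 0.09 RPKM) were the lowest members. Neighbours in this order had separate ranges over the 5 libraries only after Hspa5, Hsp90b1, Pdia6, Manf, Syvn1, Slc7a11 and Trib3. The remaining neighbours had overlapping ranges and did not differ beyond their spread.

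**Figure D2:**
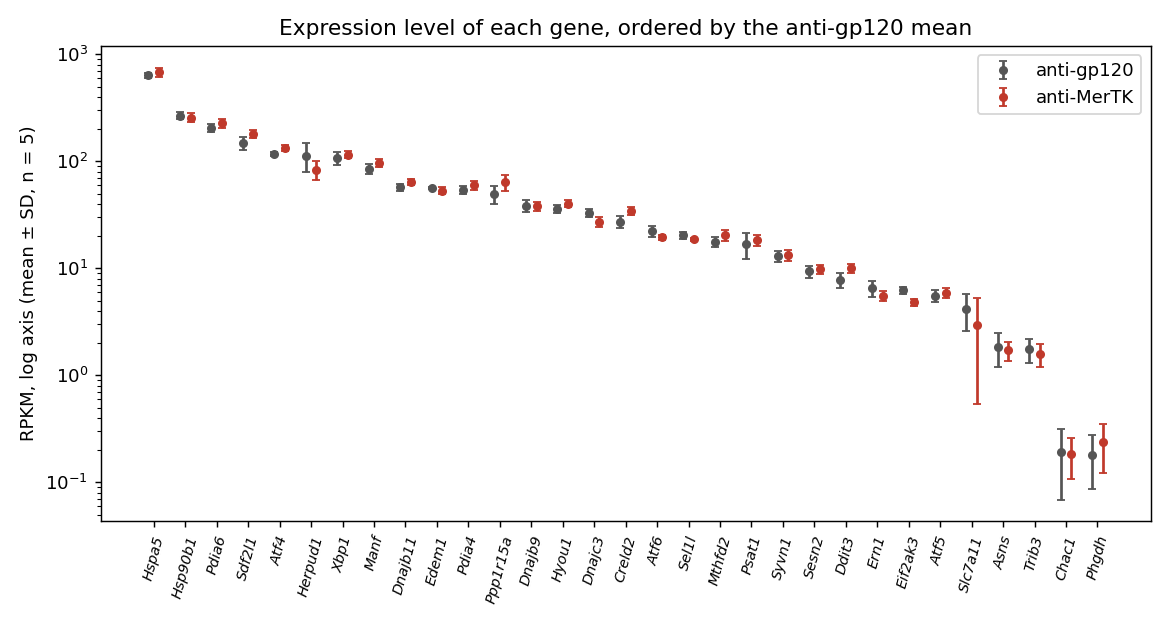
RPKM of each gene (y axis, log axis, mean ± SD of 5 libraries) in anti-gp120 (grey) and anti-MerTK (red), ordered along the x axis by the anti-gp120 mean. Chaperone genes hold the first 4 places, and ATF4 target genes hold the last 5.

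The sensors are taken first. Eif2ak3 encodes PERK, the eIF2 kinase of the ER, and lies at chr6:70844484-70905241 (GRCm38.p6, Entrez 13666). It measured 26.1, 30.9, 25.9, 30.1 and 27.2 CPM in the anti-gp120 libraries and 19.9, 20.2, 23.3, 21.2 and 23.4 CPM in the anti-MerTK libraries. Every anti-MerTK library was below every anti-gp120 library. The mean went from 28.1 ± 2.32 to 21.6 ± 1.70 CPM, a fold change of 0.77 (95% confidence interval 0.68 to 0.87, log2 -0.38, SE 0.08, adjusted p = 0.0266). It was 1 of 3 members whose groups did not overlap, with Creld2 and Atf4 on the higher side, 9.68% of the list against 5.97% of all tested genes (3.26% higher and 2.71% lower). The call held in 13 of 20 alternatives, with log2 fold changes of -0.41 to -0.35. It did not hold without anti-gp120 replicate 2 (adjusted p = 0.0737) or 4 (0.0791), or without anti-MerTK replicate 1 (0.0795), 2 (0.0683), 3 (0.0515) or 4 (0.0554). Without both anti-MerTK replicates 2 and 5 the adjusted p was 0.0732.

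Atf6 encodes the ER membrane transcription factor of the same name (chr1:170704457-170868585). It measured 144, 169.9, 163, 199.6 and 179 CPM with anti-gp120 and 150.0, 144, 149, 159.8 and 139.7 CPM with anti-MerTK. The groups overlapped through anti-gp120 replicate 1, while all 5 anti-MerTK libraries were below the anti-gp120 mean. Its fold change was 0.87 (0.77 to 0.98, adjusted p = 0.183). Ern1, which encodes IRE1, measured 21.6, 30.7, 20.8, 29.2 and 27.5 CPM against 21.2, 20.8, 20.5, 26.3 and 20.7 CPM, with a fold change of 0.84 (0.70 to 1.01, adjusted p = 0.257). Anti-gp120 replicates 2, 4 and 5 were above all the anti-MerTK libraries, and the remaining pair lay among them. Xbp1, whose mRNA is the substrate of IRE1, measured 256, 211, 271, 199.6 and 258 CPM against 248, 289, 267, 243 and 248 CPM, a fold change of 1.08 (0.94 to 1.25, adjusted p = 0.516). The Xbp1 groups overlapped, and the counts do not separate its spliced from its unspliced form.

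**Figure D3:**
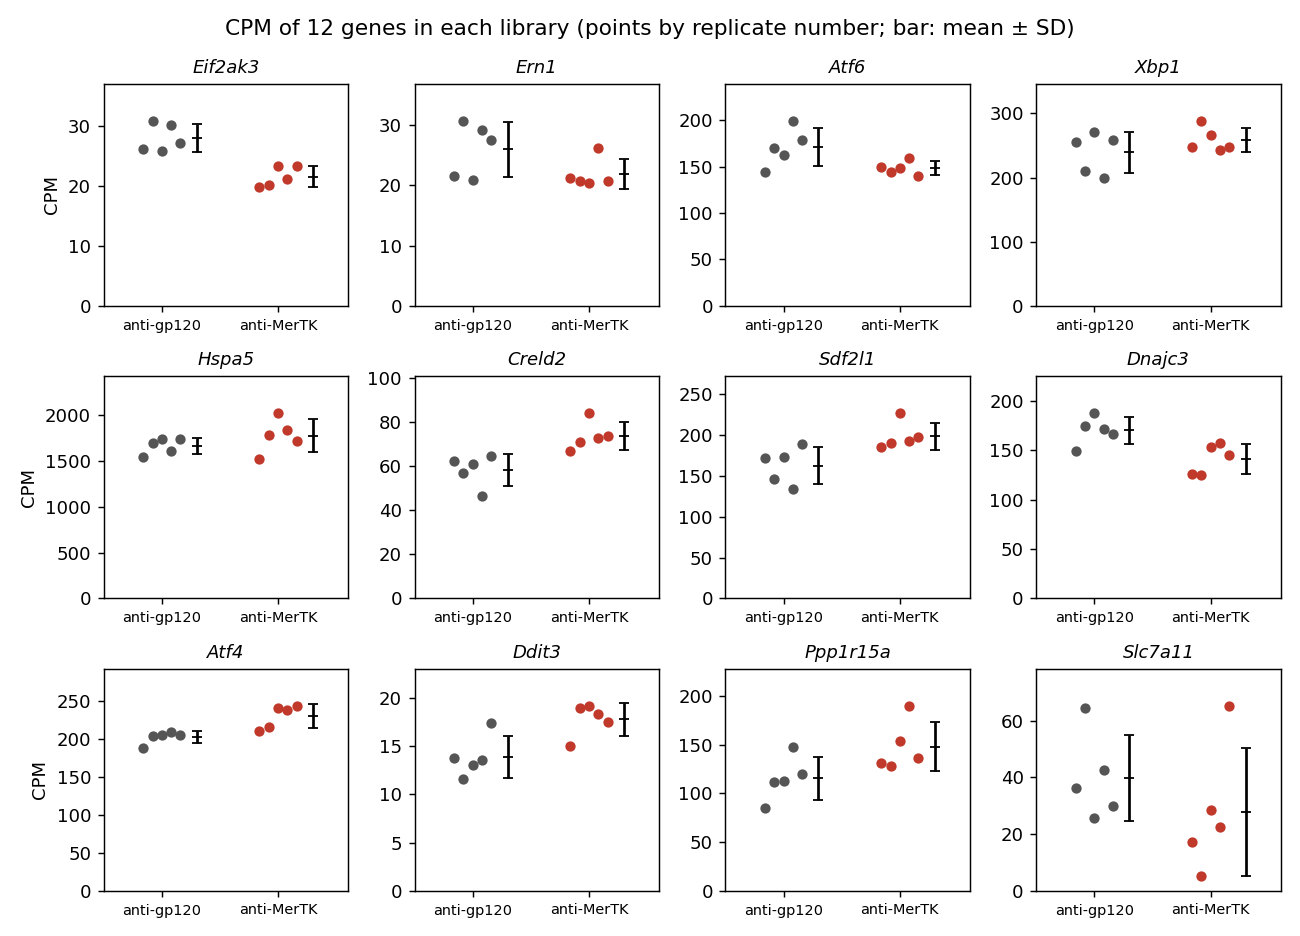
CPM (y axis, from 0) of 12 genes in each library, with points in order of replicate number and bars for mean ± SD (n = 5). Eif2ak3 separates downward with anti-MerTK, Creld2 and Atf4 separate upward, and Slc7a11 spreads from 5.37 to 65.3 CPM within the anti-MerTK group.

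Chaperone promoters are known for the ER stress response element (ERSE), to which ATF6 binds together with NF-Y, and the promoters are shown because the chaperone group is the one in which common control is best described. RefSeq promoters of GRCm38.p6, from 250 bases before to 50 bases after the start, were matched for 28 of the 31 genes; Hyou1, Manf and Atf6 were not matched. CCAAT and CCACG with 9 free bases between them were searched on both strands and found in 6 of the 28, Hspa5, Hsp90b1, Dnajc3, Pdia6, Creld2 and Syvn1, and in 37 of 27025 genes with a promoter (0.137%). Capitals mark the fixed letters of the element, which read CGTGG and ATTGG where the match is on the opposite strand. Hsp90b1 held 2 matches. The windows are chr2:34772005-34772063 (plus strand) for Hspa5, chr10:86705618-86705676 and chr10:86705513-86705571 (minus strand) for Hsp90b1, chr14:118937807-118937865 (plus) for Dnajc3, chr12:17266471-17266529 (plus) for Pdia6, chr15:88819500-88819558 (plus) for Creld2 and chr19:6046512-6046570 (plus) for Syvn1.
Hspa5: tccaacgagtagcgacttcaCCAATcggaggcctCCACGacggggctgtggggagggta
Hsp90b1, far match: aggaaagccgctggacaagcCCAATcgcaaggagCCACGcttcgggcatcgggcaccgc
Hsp90b1, near match: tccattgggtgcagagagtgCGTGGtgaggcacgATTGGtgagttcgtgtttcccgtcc
Dnajc3: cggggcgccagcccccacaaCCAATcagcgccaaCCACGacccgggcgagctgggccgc
Pdia6: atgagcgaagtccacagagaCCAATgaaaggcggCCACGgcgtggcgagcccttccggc
Creld2: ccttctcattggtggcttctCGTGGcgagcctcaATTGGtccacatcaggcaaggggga
Syvn1: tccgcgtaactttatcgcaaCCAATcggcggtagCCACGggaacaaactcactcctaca
The 6 genes with these letters had log2 fold changes of 0.09 (Hspa5), -0.07 (Hsp90b1), -0.27 (Dnajc3), 0.13 (Pdia6), 0.34 (Creld2) and 0.03 (Syvn1), so carriers of the element lay on both sides of 0. A match of letters is a description of the window.

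None of the 11 chaperone and folding genes rose or fell at the adjusted threshold, which 3.22% of all tested genes passed. All 11 intervals lay within 1.5-fold of no change, as did those of 68.6% of all tested genes. Their estimates were positive for 8 and negative for 3 (6654 and 6934 over all tested genes), with a median of 0.14. The median was 0.09 without anti-MerTK replicate 3 and 0.10 without anti-gp120 replicate 4. At an unadjusted p under 0.05, 3 were higher (Dnajb11, Sdf2l1 and Creld2) and 1 was lower (Dnajc3). That is 36.4% of the 11, against 20.9% of all tested genes (10.1% higher and 10.8% lower). Hspa5 (chr2:34772090-34776529), the BiP gene that serves as the usual reporter of the response, measured 1546, 1703, 1739, 1611 and 1743 CPM with anti-gp120 and 1526, 1788, 2024, 1835 and 1721 CPM with anti-MerTK. The groups overlapped, with both the highest and the lowest library in the anti-MerTK group. The fold change was 1.07 (0.94 to 1.21, adjusted p = 0.564). Hsp90b1, which encodes the ER member of the HSP90 family, GRP94, had a fold change of 0.96 (0.84 to 1.08, adjusted p = 0.691).

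Creld2 (chr15:88819646-88826681), a small secreted ER stress-inducible factor, measured 62.1, 56.7, 60.9, 46.2 and 64.4 CPM with anti-gp120 and 66.7, 70.9, 83.9, 72.7 and 73.4 CPM with anti-MerTK. Every anti-MerTK library was above every anti-gp120 library. The fold change was 1.27 (1.10 to 1.46, log2 0.34, SE 0.09) with an adjusted p of 0.0681 in edgeR, which missed the threshold. DESeq2 (0.0168) and limma-voom (0.0328) gave values under it, the only 2 of 20 alternatives that did. The largest adjusted p was 0.166, without anti-MerTK replicate 3. Sdf2l1 (chr16:17130138-17132383), which acts with BiP and its J-domain partners, measured 172, 147, 173, 134 and 189 CPM against 186, 190.3, 227, 193 and 198 CPM, a fold change of 1.22 (1.06 to 1.41, adjusted p = 0.116). Its groups overlapped because anti-gp120 replicate 5 lay above anti-MerTK replicate 1. Limma-voom gave Sdf2l1 an adjusted p of 0.0464, the only 1 of 20 alternatives under the threshold. The largest adjusted p was 0.273, with offsets for length and GC content.

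The J-domain co-chaperones of BiP did not share a direction. Dnajc3 (p58IPK, chr14:118937932-118981702), which also inhibits PERK, measured 149, 175, 188, 172 and 167 CPM against 126, 125, 153, 157 and 145 CPM. All 5 anti-MerTK libraries were below the anti-gp120 mean, and the groups overlapped through anti-gp120 replicate 1. Dnajc3 had a fold change of 0.83 (0.73 to 0.94, adjusted p = 0.104). DESeq2 gave an adjusted p of 0.0482, the only 1 of 20 alternatives under the threshold. The largest was 0.287, with offsets for length and GC content. Dnajb11 had a fold change of 1.12 (1.01 to 1.25, adjusted p = 0.197). Dnajb9, a frequent marker of IRE1 and XBP1 output, had a fold change of 0.98 (0.84 to 1.14, adjusted p = 0.904).

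The remaining folding genes had positive estimates. The disulfide isomerase genes Pdia4 and Pdia6 had fold changes of 1.10 (0.97 to 1.25) and 1.10 (0.97 to 1.24). Hyou1, which encodes the large chaperone GRP170, a nucleotide exchange factor of BiP, had 1.12 (0.999 to 1.26, adjusted p = 0.244), and Manf, a secreted ER factor with cytoprotective activity, had 1.13 (0.99 to 1.28, adjusted p = 0.261). Of the 11 genes, 7 had all 5 anti-MerTK libraries above the anti-gp120 mean, as did 15.8% of all tested genes, and 1 had all 5 below it, as did 18.9% of all tested genes. The 11 genes were measured in the same libraries and are not independent of each other. A single pair of libraries sat at the ends of many of them: 8 of the 11 were highest in anti-MerTK replicate 3 and 6 of the 11 were lowest in anti-gp120 replicate 4.

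The 4 genes of ER-associated degradation had a median log2 fold change of -0.11. None passed the threshold, which 3.22% of all tested genes passed. Herpud1 (chr8:94386429-94395371), an ER membrane adaptor of the retrotranslocation complex, measured 179, 194, 273, 257 and 371 CPM with anti-gp120 and 148, 164, 223, 231 and 175 CPM with anti-MerTK. The groups overlapped and anti-gp120 replicate 5 was the highest library. Herpud1 had a fold change of 0.74 (0.548 to 0.995, adjusted p = 0.233), the widest interval of the 4. Its log2 value was -0.44, and -0.26 without anti-gp120 replicate 5. Sel1l, the adaptor of the HRD1 ligase, had a fold change of 0.91 (0.82 to 1.01), the mannosidase-like gene Edem1 had 0.94 (0.85 to 1.04), and Syvn1, which encodes HRD1 itself, had 1.02 (0.88 to 1.19). The promoter of Herpud1 is shown because it held both the ERSE-II letters, ATTGG and CCACG with 1 free base between them, found in 2 of the 28 promoters (the other is Dnajb11, with its match after the start) and in 12 of 27025 genes (0.0444%), and the letters TGATGCAA of the CARE element bound by ATF4 with C/EBP partners, found in 3 of the 28 promoters and in 279 genes (1.03%). The windows are chr8:94386357-94386407 and chr8:94386297-94386344, both plus strand.
Herpud1, ERSE-II: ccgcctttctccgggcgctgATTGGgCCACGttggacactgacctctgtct
Herpud1, CARE on the opposite strand: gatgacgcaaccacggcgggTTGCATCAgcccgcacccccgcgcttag
The XBP1-type letters TGACGTGG were found in 0 of the 28 promoters and 0.714% of all genes, and the CARE form TGATGNAAT in 0 of the 28 and 1.08% of all genes.

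The 3 transcription factors of the integrated stress response all had positive estimates, with a median of 0.18, and none passed the threshold. Over all tested genes 3.22% passed it, and 6654 of 13588 estimates were positive. Atf4 (chr15:80255184-80257545), the central factor, whose protein is controlled at translation, measured 188, 204, 205, 209 and 205 CPM with anti-gp120 and 209.5, 215, 240.5, 238 and 243 CPM with anti-MerTK. Every anti-MerTK library was above every anti-gp120 library, by a narrow margin between anti-gp120 replicate 4 and anti-MerTK replicate 1. Atf4 had a fold change of 1.13 (1.03 to 1.25, log2 0.18, SE 0.07, adjusted p = 0.143). Ddit3 (chr10:127290793-127296291), which encodes the pro-apoptotic factor CHOP, measured 13.8, 11.5, 13.1, 13.5 and 17.4 CPM against 15.0, 18.9, 19.2, 18.3 and 17.5 CPM. Anti-gp120 replicate 5 lay above anti-MerTK replicate 1, and the groups otherwise separated. For Ddit3 this gave a fold change of 1.28 (1.09 to 1.51, log2 0.36, adjusted p = 0.0935). Without anti-gp120 replicate 5 the log2 fold change was 0.46 and the adjusted p was 0.0280, and DESeq2 gave 0.0361. Ddit3 passed in only these 2 of 20 alternatives. Its largest adjusted p was 0.235, in the 8 libraries without anti-MerTK replicates 2 and 5. Ddit3 overlaps the ends of Mbd6 and Mars1 in the annotation, and Atf5 overlaps Nup62 and Il4i1b. Strand use in counting is not given in the sources used here, so reads in those stretches cannot be assigned with certainty. Atf5, a factor of the mitochondrial stress route, had a fold change of 1.06 (0.90 to 1.25, adjusted p = 0.672). Its log2 value was 0.09, and -0.04 with offsets for length and GC content.

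The 9 ATF4 target genes had a median of 0.06 and 0 calls, where 3.22% of all tested genes were called. Their estimates were positive for 5 and negative for 4, against 6654 and 6934 over all tested genes. These target genes were measured less precisely than the chaperones, with a median SE of 0.21 against 0.08 on the log2 scale. Of their 9 intervals, 3 lay within 1.5-fold (33.3%), against 68.6% of all tested genes. Ppp1r15a (GADD34, chr7:45522917-45526268), the phosphatase subunit that reverses eIF2 phosphorylation, measured 85.3, 111, 113, 147 and 119 CPM with anti-gp120 and 131, 128, 154, 189.8 and 137 CPM with anti-MerTK. All 5 anti-MerTK libraries were above the anti-gp120 mean, and the groups overlapped through anti-gp120 replicate 4. The fold change was 1.28 (1.03 to 1.59, log2 0.36, adjusted p = 0.178). It was the only target gene of the 9 with an unadjusted p under 0.05, 11.1% against 20.9% of all tested genes.

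The amino acid synthesis genes gave no common direction. Asns, asparagine synthetase, measured 6.10, 5.52, 3.17, 3.03 and 3.16 CPM against 4.25, 3.61, 3.78, 2.90 and 5.04 CPM, a fold change of 0.93 (0.66 to 1.31). Psat1, an aminotransferase of serine synthesis, measured 63.7, 53.5, 40.5, 35.9 and 33.6 CPM against 55.0, 43.2, 54.3, 42.8 and 51.8 CPM, a fold change of 1.09 (0.84 to 1.40). Both genes were highest in anti-gp120 replicate 1, and the groups overlapped for both. Phgdh, the first enzyme of serine synthesis, was under 1 CPM in every library and its fold change of 1.29 had an interval of 0.69 to 2.39. Mthfd2, a mitochondrial folate enzyme, had a fold change of 1.15 (0.99 to 1.33, adjusted p = 0.260).

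Slc7a11 (chr3:50364936-50499087), the cystine importer subunit xCT, varied most among the genes above 1 RPKM. It measured 36.1, 64.4, 25.6, 42.4 and 30.0 CPM with anti-gp120 and 17.2, 5.37, 28.7, 22.6 and 65.3 CPM with anti-MerTK. Anti-MerTK replicate 5 was the highest of the 10 libraries and anti-MerTK replicate 2 the lowest, a coefficient of variation of 81.6% in that group against 37.4% with anti-gp120. On the first principal component of all tested genes, with 29.8% of the variance, anti-MerTK replicate 2 lay farthest out (46.6), and anti-MerTK replicate 5 (-12.9) lay within the range of the anti-gp120 libraries (-28.3 to 1.51). Those 2 libraries are the ones left out in the setting of 8 libraries. The fold change was 0.70 with an interval of 0.32 to 1.54, and its log2 value ran from -1.10 to -0.25 over the alternatives. Chac1, a glutathione-degrading enzyme gene, was under 1 CPM in every library. Trib3, a pseudokinase that restrains ATF4, had a fold change of 0.89 (0.65 to 1.21), and Sesn2, a leucine sensor and inhibitor of mTORC1, had 1.04 (0.89 to 1.22). CARE letters were found in the promoters of Chac1 and Slc7a11, the latter with 2 matches, shown here at chr2:119351029-119351076 (plus strand), chr3:50443652-50443699 and chr3:50443633-50443680 (minus strand).
Chac1, opposite strand: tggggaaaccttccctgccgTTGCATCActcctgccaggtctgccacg
Slc7a11, same strand: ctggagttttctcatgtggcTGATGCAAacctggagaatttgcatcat
Slc7a11, opposite strand: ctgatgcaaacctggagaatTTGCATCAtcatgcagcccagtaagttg
The fold change intervals of Chac1 and Slc7a11 included 1. That of Herpud1, which also held the CARE letters, did not (0.548 to 0.995, adjusted p = 0.233).

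Each role was also followed library by library, as the mean over its genes of the log2 CPM minus the gene's mean over 10 libraries. This score was not planned and is a description with no test. A median over the genes was computed after the means had been seen, because Chac1 at 0 counts weighs on the mean, and both are given where they differ. The transcription factors lay at -0.17 to -0.03 with anti-gp120 and at 0.02 to 0.20 with anti-MerTK, without overlap. By the median those ranges were -0.19 to -0.04 and -0.04 to 0.17, so they came close to touching. The score is not adjusted for transcript length, and Atf4, Ddit3 and Atf5 all have short transcripts (2019, 969 and 1816 bases). The chaperones differed by 0.10 between the groups and overlapped, from a lowest value of -0.18 in anti-gp120 replicate 4 to a highest of 0.21 in anti-MerTK replicate 3. The sensors, counting Xbp1, differed by -0.17 by the mean and -0.24 by the median, and the groups overlapped by both. By the mean they lay at -0.03 to 0.15 with anti-gp120 and at -0.14 to -0.02 with anti-MerTK. The degradation genes differed by -0.15 by the mean and -0.12 by the median, also with overlap. ATF4 targets spread from -0.48 (anti-gp120 replicate 3) to 0.34 (anti-gp120 replicate 2), and the difference between the groups was 0.03 by the mean and -0.01 by the median, so its sign depended on the score.

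**Figure D4:**
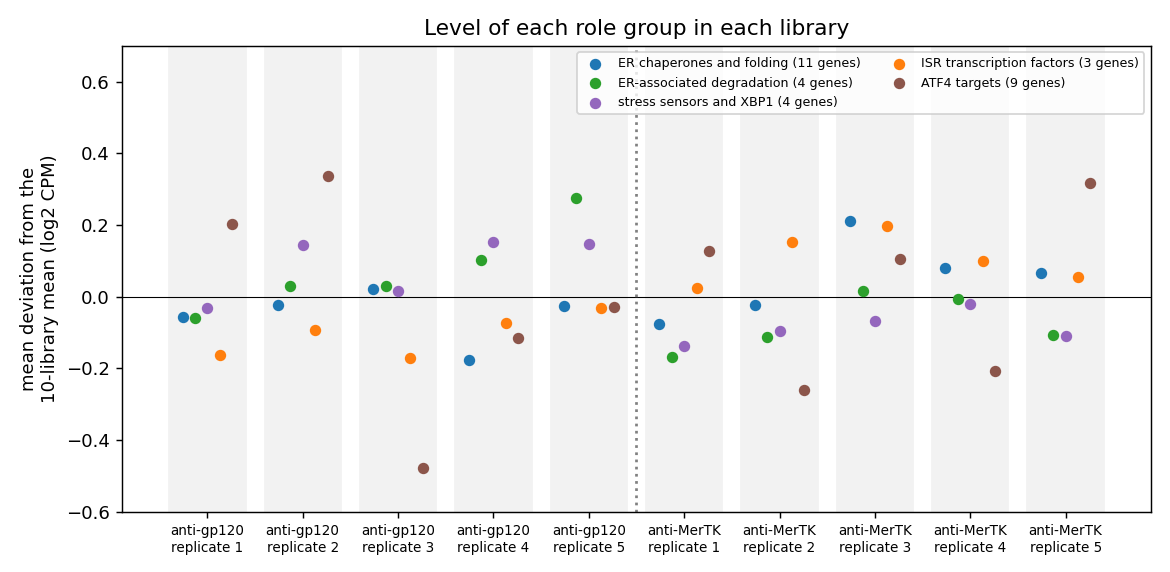
Mean deviation of each role's genes from their 10-library mean (y axis, log2 CPM) in each library (x axis), 1 point per role. Transcription factors (orange) are below 0 in all 5 anti-gp120 libraries and above 0 in all 5 anti-MerTK libraries, while ATF4 targets (brown) scatter in both groups.

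In all, 5 pairs of genes were correlated over the 10 libraries on log2 CPM, with two-sided permutation p-values adjusted over the 5 pairs. Asns and Psat1, both of amino acid synthesis, varied together (Pearson r = 0.84, permutation p = 0.0031, adjusted 0.0156; Spearman rho = 0.82, permutation p = 0.0060, adjusted 0.0300). With each group's mean subtracted r was 0.90 (permutation, adjusted p = 0.0016). Without anti-gp120 replicates 1 and 2, the libraries farthest from the median of Asns, r was 0.76 over 8 libraries (permutation p = 0.0274, adjusted 0.137), which missed the threshold. Hspa5 and Ddit3, a chaperone and the CHOP gene, had r = 0.61 (permutation, adjusted p = 0.156) and rho = 0.68 (permutation, adjusted p = 0.0861). With each group's mean subtracted their r was 0.52 (permutation, adjusted p = 0.304). It was 0.16 within anti-gp120 and 0.92 within anti-MerTK. The pairs Hspa5 and Hsp90b1 (r = 0.23), Hspa5 and Asns (r = -0.38) and Ddit3 and Trib3 (r = -0.34) had adjusted permutation p-values of 0.531, 0.421 and 0.421. For Hspa5 and Hsp90b1, the most abundant chaperone genes, no correlation was detectable over the 10 libraries together, and its sign was not stable. Their r was -0.42 within anti-gp120 and 0.74 within anti-MerTK (n = 5 each). Without anti-MerTK replicates 1 and 3 it was -0.41 (permutation, adjusted p = 0.397).

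Other genes of the same pathways were counted from lists of 113 genes, of which 108 were tested. Of these 1 rose and 1 fell, 1.85% against 3.22% of all tested genes, and the median log2 fold change was -0.01. Both called genes belong to ER folding. Ero1b, an oxidase that supplies disulfide bonds, measured 43.1, 46.7, 43.4, 47.4 and 43.9 CPM with anti-gp120 and 33.6, 31.2, 34.9, 36.6 and 39.0 CPM with anti-MerTK. Its groups did not overlap, with a log2 fold change of -0.36 (SE 0.07, adjusted p = 0.0222). The call was lost without anti-gp120 replicate 2 (0.0584) or 4 (0.0719), or without anti-MerTK replicate 1 (0.0702), 2 (0.0520) or 3 (0.0636). Selenom, an ER selenoprotein, went from 29.1 ± 5.82 to 43.8 ± 5.81 CPM (log2 0.59, SE 0.13, adjusted p = 0.0381). That call was lost without anti-gp120 replicate 2 (0.0920), 3 (0.0723) or 4 (0.10), without anti-MerTK replicate 1 (0.0968), 2 (0.0811), 3 (0.0773) or 4 (0.0587), in the 8 libraries without anti-MerTK replicates 2 and 5 (0.0962), and with length and GC offsets (0.0690).

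None of the remaining lists held a called gene, where 3.22% of all tested genes were called. Of 23 other folding genes the most abundant was Calr, the lectin chaperone calreticulin, with a log2 fold change of 0.11 (adjusted p = 0.464). Of 16 other degradation genes the smallest p-values were those of Edem3 (-0.29, adjusted p = 0.0671) and Ube2j1 (-0.28, adjusted p = 0.0944). Among 16 other sensors and regulators, Eif2ak2, the eIF2 kinase of double-stranded RNA known as PKR, went from 45.0 ± 3.91 to 64.1 ± 13.7 CPM (log2 0.51, adjusted p = 0.0657) and passed in 6 of 20 alternatives. Its groups overlapped through anti-MerTK replicate 5, at 44.1 CPM. Without that library the adjusted p was 0.0073, and without both anti-MerTK replicates 2 and 5 it was 0.0188. Both settings are among the 6. The 7 other stress transcription factors had a median of -0.28, with Cebpg, a partner of ATF4, at 93.1 ± 15.5 and 70.0 ± 7.17 CPM (log2 -0.41, adjusted p = 0.0666). The 15 tested genes of amino acid transport and synthesis had a median of -0.03, the 20 tRNA synthetase genes 0.03 and the 12 tested further outputs of ATF4 or CHOP -0.04. In those lists the genes of smallest p were Slc7a5 (0.31, adjusted p = 0.223), Farsa (0.21, adjusted p = 0.0821) and Bcl2l11 (-0.55, adjusted p = 0.129). The genes of next smallest p were Got1 (-0.33, adjusted p = 0.241), Kars1 (0.20, adjusted p = 0.0888) and Bbc3 (0.81, adjusted p = 0.142). Got1 and Bbc3 had estimates of the opposite sign to Slc7a5 and Bcl2l11.

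The estimates moved with transcript length. Over the 11909 tested genes with a matched transcript, the log2 fold change had a Pearson correlation of -0.23 and a Spearman correlation of -0.30 with the log2 length, across genes, which are not independent replicates. Over the 31 members these were -0.62 and -0.53. Split into 3 classes of near equal size by length, the shortest genes had a median of 0.06, the middle class 0.00 and the longest -0.10. The 17 members among the shortest had a median of 0.14 and the 8 among the longest -0.23. Ddit3, Sdf2l1 and Creld2, with positive estimates, have short transcripts (969, 1108 and 1366 bases), and Ern1, Atf6 and Dnajc3, with negative ones, have long transcripts (6946, 7246 and 5141 bases). Members also ran the other way: Herpud1, at 1952 bases, had -0.44 and Hyou1, at 4925 bases, had 0.16. With offsets for length and GC content the median of the members was 0.01 and that of the chaperones 0.12. Eif2ak3, at 4513 bases, kept a log2 fold change of -0.35 (SE 0.07, adjusted p = 0.0269). Under the same offsets Atf6 moved from -0.20 to -0.08, Atf4 from 0.18 to 0.09, Dnajc3 from -0.27 to -0.17 and Creld2 from 0.34 to 0.24. The sign changed for Atf5 (0.09 to -0.04), Sesn2 (0.06 to -0.01), Edem1 (-0.09 to 0.01) and Syvn1 (0.03 to -0.002). Other members moved away from no change: Herpud1 from -0.44 to -0.51, Trib3 from -0.17 to -0.28, Hyou1 from 0.16 to 0.19 and Hspa5 from 0.09 to 0.12.

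**Figure D5:**
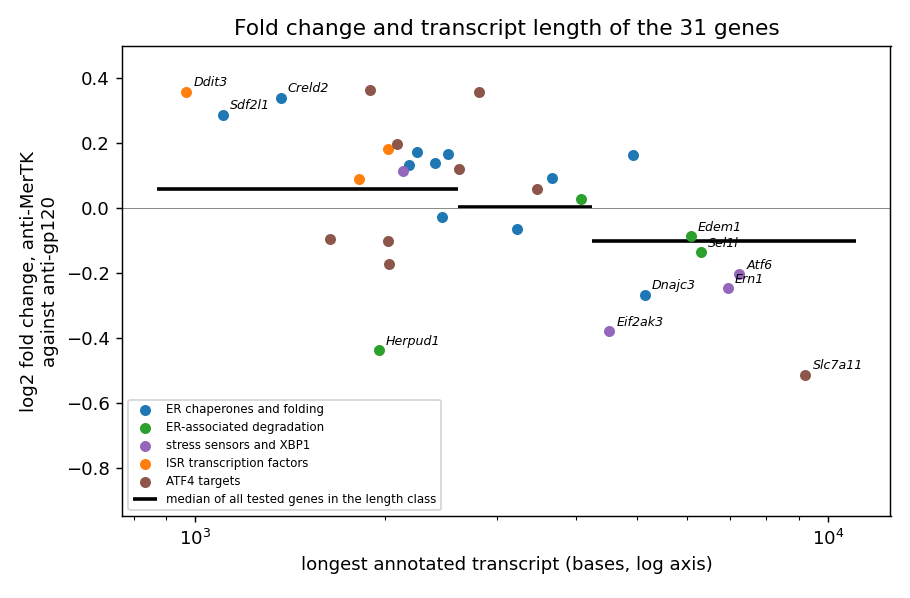
Log2 fold change (y axis) of the 31 genes against the length of their longest annotated transcript (x axis, bases, log axis), coloured by role. Black bars are the medians of all tested genes in each of 3 length classes, from 0.06 in the shortest to -0.10 in the longest.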

How the data were processed

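Polyadenylated RNA of purified tumour macrophages was measured in 10 libraries, 5 per antibody, grouped by the treatment label. Replicate numbers follow accession order and pair nothing. The authors aligned reads with GSNAP to GRCm38, per the submitters' processing notes; no source used here gives versions, annotation or strand use. The deposited counts are reads aligning uniquely to a gene model, per the file headers. Per the file headers, the authors adjusted the deposited RPKM values by library size factors; these values were used for levels between genes and for an alternative scaling. Of 36528 identifiers, 31049 were named from RefSeq (GRCm38.p6), and the 5479 unnamed held 2.14% to 2.66% of counts and stayed in the fit. No libraries agreed within sampling noise (smallest chi-square per degree of freedom 27.2).

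Genes passing filterByExpr were tested with edgeR 4.0.16 (limma 3.58.1, R 4.3.3; TMM, robust quasi-likelihood, two-sided). The SE is the log2 fold change divided by the square root of F. Log2 CPM used a prior count of 2, and correlations 100000 permutations. On simulated data with 200 changed genes among 13588, 98.3% of 2-fold and 80.0% of 1.5-fold changes were recovered and 4.29% of calls were false. Simulated counts followed the fitted dispersion trend, without outlying libraries, and changes were placed only in genes of at least 2 CPM. Recovery in the real libraries, and for genes as low as Chac1 and Phgdh, was not tested. Alternatives were RLE, upper quartile and the authors' scaling, no filter, 5 CPM in 5 libraries, DESeq2 1.42.0, limma-voom, 1 surrogate variable (sva 3.50.0), each library left out, and 8 libraries. Length and GC offsets (splines, longest GENCODE M21 transcript) were chosen after seeing the data, as were the role scores. The named genes are the 31 members, Mertk, and in each other list the 2 of smallest p and the most abundant, of which some are printed. The members and lists were chosen with earlier results of these data known. Python 3.11.15, pandas 2.3.3 and scipy 1.17.1 were used.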

Additional observations from a re-analysis of the deposited data

Results flagged for a closer look

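In 62 groups of 5 libraries (31 genes, 2 antibodies), 3 held a library that stood far from the rest by Dixon's criterion at 0.71, and chance flags about 1 group in 20. Ern1 measured 26.3 CPM in anti-MerTK replicate 4, above the 20.5 to 21.2 CPM of the other anti-MerTK libraries. Atf4 measured 188 CPM in anti-gp120 replicate 1, below the 204 to 209 CPM of the other anti-gp120 libraries. Chac1 measured 0 CPM in anti-gp120 replicate 3, where the other anti-gp120 libraries had 0.270 to 0.522 CPM, and a count of 0 there allows up to 0.0915 CPM, counting error only.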

How the results depend on the processing

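The 31 genes gave 0 higher and 1 lower call. Higher calls numbered 2 with DESeq2 (Creld2, Ddit3), 2 with limma-voom (Creld2, Sdf2l1) and 0 to 1 with each library left out. Lower calls numbered 2 with DESeq2 (Dnajc3, Eif2ak3), 0 in the 8 libraries without anti-MerTK replicates 2 and 5, and 0 to 1 with each library left out. Over all genes 438 were called, against 1168 with DESeq2, 1036 with limma-voom, 204 in the 8 libraries and 70 to 654 with each library left out; the cause was not tested. The correlation of Asns with Psat1 was 0.76 without its 2 farthest libraries. Trib3, Chac1, Asns and Phgdh were not tested under the filter of 5 CPM, where 27 members remained. Depth limits Chac1 and Phgdh, which were under 1 CPM. No paired analysis was possible because the labels give no replicate numbers and the numbers used here follow accession order.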
